A study of Mus musculus with 6 samples.

Results

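5-Hydroxymethylcytosine (5hmC), an oxidized form of methylated cytosine, was examined around 7 genes of the oligodendrocyte lineage: Mbp, Mog, Cnp, Sox10, Pdgfra, Olig1 and Olig2. The members were all 5hmC regions of the count table whose midpoint lay in 1 of 6 windows drawn around these genes in the mouse build mm9, in which Olig1 and Olig2 shared a window. This gave 119 regions out of 192196. The windows ran from 82.62 to 82.78 Mb on chromosome 18 (Mbp), from 37.13 to 37.18 Mb on chromosome 17 (Mog), from 100.41 to 100.46 Mb on chromosome 11 (Cnp), from 78.96 to 79.02 Mb on chromosome 15 (Sox10), from 75.52 to 75.62 Mb on chromosome 5 (Pdgfra) and from 91.18 to 91.32 Mb on chromosome 16 (Olig1/Olig2). No annotation of mm9 was used, so exons, introns and start sites inside the windows are not given, and a window may also take in parts of neighbouring genes. In RefSeq for GRCm38.p6 the nearest protein-coding neighbours were Galr1 and Zfp236 for Mbp, Zfp57 and Gabbr1 for Mog, Ttc25 and Dnajc7 for Cnp, Polr2f and Pick1 for Sox10, and Gsx2 and Kit for Pdgfra. Olig2 and Olig1 were each other's neighbours, with 4932438H23Rik before Olig2 and Ifnar2 after Olig1.

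The study compared Tet1 KO mice, which lack Tet1 constitutively, with Tet1 WT mice, with 2 5hmC libraries in each group. The labels call the material brain, while the text of the study describes astrocytes cultured from the cortex and hippocampus of newborn pups. Neither source gives the strain, the sex, or how many animals or cultures stand behind a library, so the spread between libraries of a group may be technical. Total counts ranged from 16819455 to 19288900 per library. The KO libraries differed from each other more than the WT libraries did over the whole table: the median absolute log2 ratio between the libraries of a pair was 0.531 in KO and 0.294 in WT. Tet1 itself was not analysed here.

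Oligodendrocytes are the glial cells that wrap axons in myelin, and they arise from precursor cells that divide and migrate through the brain. The transcription factors Olig2 and Sox10 set up the lineage, together with Olig1, and Pdgfra, the receptor for platelet-derived growth factor, marks the precursors. Mbp (myelin basic protein), Mog (myelin oligodendrocyte glycoprotein) and Cnp (a phosphodiesterase of myelinating cells) belong to the mature cell. The Tet enzymes make 5hmC from methylated cytosine, mostly at CpG pairs, that is, a C followed by a G. No RNA was measured in this series, so the presence of oligodendrocytes was not tested, and in bulk DNA fewer cells with 5hmC and less 5hmC per cell cannot be told apart. Separately, the study reports RNA sequencing and marker staining of its cultured astrocytes and proposes that they were highly homogeneous. The markers it names for this are of astrocytes, neural precursors and neurons, and that RNA was not analysed here.

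To show the range of CpG content among these genes, the promoters with the most and the fewest CpG pairs are printed. RefSeq promoters were found for 4 of the 7 genes (Pdgfra, Cnp, Olig2 and Mog). Within the 250 bases before the start, Olig2 had 22 CpG pairs, more than 85.2% of the 32851 promoters in the table, and Cnp had 13. Pdgfra had 4 and Mog had 2, against a median of 6. The sequences are from GRCm38.p6, at chr16:91225300-91225549 on the + strand for Olig2 and at chr17:37023399-37023648 on the - strand for Mog. They run 5′ to 3′ with the CpG pairs in capitals. These positions cannot be set against the mm9 regions, so whether a 5hmC region lay on either promoter is not known.
Olig2: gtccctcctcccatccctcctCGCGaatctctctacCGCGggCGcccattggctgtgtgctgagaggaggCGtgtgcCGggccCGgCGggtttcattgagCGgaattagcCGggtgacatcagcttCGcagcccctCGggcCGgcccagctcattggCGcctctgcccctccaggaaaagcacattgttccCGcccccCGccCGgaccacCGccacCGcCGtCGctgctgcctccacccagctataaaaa
Mog: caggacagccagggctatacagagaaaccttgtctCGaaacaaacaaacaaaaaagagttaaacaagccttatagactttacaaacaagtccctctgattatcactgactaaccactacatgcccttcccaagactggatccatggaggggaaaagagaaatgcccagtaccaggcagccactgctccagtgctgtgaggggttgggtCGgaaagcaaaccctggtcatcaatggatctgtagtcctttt

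The windows differed widely in how much 5hmC they held. The Olig1/Olig2 window held 43 regions in 140 kb, or 30.7 per 100 kb, and the Mbp window 42 in 160 kb, or 26.2 per 100 kb. The median of 24127 autosomal bins of 100 kb was 5 regions. The Olig1/Olig2 window had more regions per 100 kb than 98.6% of these bins, and the Mbp window more than 97.1%. Cnp followed with 11 regions in 50 kb (22 per 100 kb, above 93.3% of bins), then Sox10 with 9 in 60 kb (15 per 100 kb) and Pdgfra with 13 in 100 kb. The Mog window had 1 region in 50 kb, and 22.8% of bins had fewer regions per 100 kb. Regions covered 21.5% of the Olig1/Olig2 window, 15.8% of Mbp, 14.3% of Cnp, 8.34% of Sox10, 6.52% of Pdgfra and 0.58% of Mog. Among the 4 promoters, the one with most CpG pairs belonged to the window with most regions, and the one with fewest to the window with 1 region. This is a description only. No promoter was found for Mbp, whose window held 42 regions, or for Sox10, and a link between promoter CpG pairs and regions was not tested.

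Levels were compared as normalised read counts (CPM, counts scaled to a common library size), given per 100 kb of window. The library sizes were adjusted by TMM, a scaling on the bulk of the regions, whose factors were 1.23 and 0.815 in KO samples 1 and 2, and 1.12 and 0.894 in WT samples 1 and 2. Differences between single libraries therefore depend on this step, and the sums by total counts alone are given where the windows are compared. In the Olig1/Olig2 window the level was 168 and 177 CPM per 100 kb in KO samples 1 and 2, and 159 and 155 in WT samples 1 and 2. This was the highest level of the 6 windows in every library. The Mbp window had 97.9, 155, 115 and 132 CPM per 100 kb in the same order of libraries. The Cnp window had 95.8, 99.2, 92.0 and 98.2. For Sox10 the values were 58.4, 114, 70.5 and 83.4, with the WT libraries between the KO libraries. Pdgfra had 33.4, 30.04, 32.6 and 30.8 CPM per 100 kb. Mog had 3.75, 1.30, 2.99 and 1.86, from 40, 10, 28 and 16 counts. The order Olig1/Olig2, Mbp, Cnp, Sox10, Pdgfra, Mog held in 3 libraries. In KO sample 2, Sox10 stood above Cnp, and in KO sample 1, Mbp and Cnp were nearly equal, so these neighbours in the order were not separated beyond the spread between libraries. The Pdgfra and Mog levels did not overlap those of any other window, and the lowest Olig1/Olig2 library was level with the highest Mbp library, both at 155 CPM per 100 kb.

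**Figure D1:**
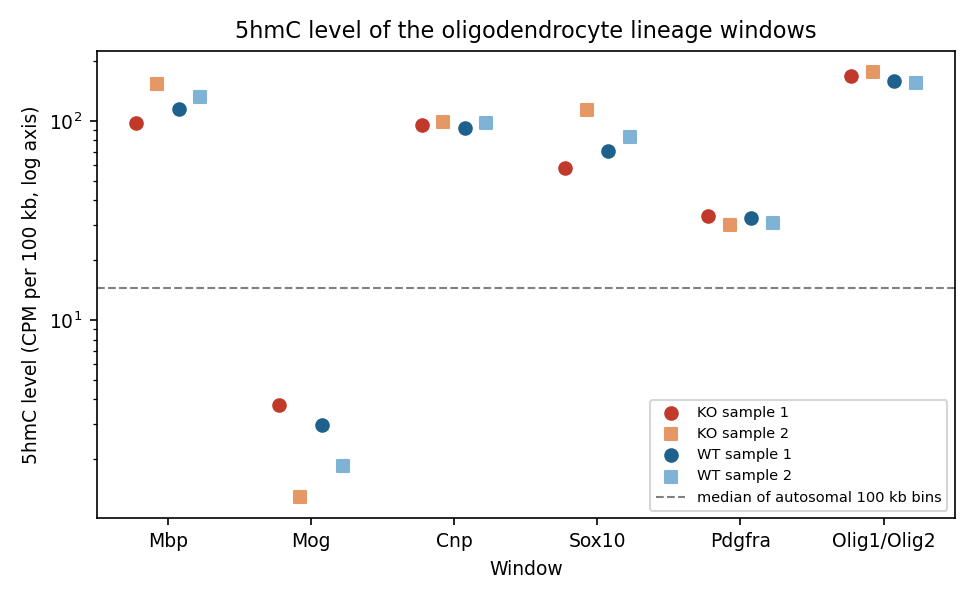
5hmC level of the 6 windows in the 4 libraries, in CPM per 100 kb on a log axis, 1 point per library; the dashed line is the median of autosomal 100 kb bins (14.5 CPM). Olig1/Olig2 stands highest and Mog lowest in every library, and only Mog lies below the dashed line.

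The level per kb of region itself varied less than the number of regions. Over all regions of the table the median was 5.80 CPM per kb, the mean of the 4 libraries. Of the 119 members, 70 lay above this median, among them 30 of 43 in the Olig1/Olig2 window, 25 of 42 in Mbp, 6 of 11 in Cnp and 5 of 9 in Sox10, but 4 of 13 in Pdgfra. The median per kb was 7.26 CPM in Olig1/Olig2, 6.13 in Mbp, 6.71 in Sox10, 5.90 in Cnp and 4.51 in Pdgfra, and the single Mog region had 4.27. Members had a median width of 450 bp and ranged from 180 to 3003 bp. Of them, 14.3% were wider than 1 kb, against 10.7% of all regions. Wider members held more counts, with Spearman's rho of 0.869 over the 112 members that passed the low-count filter, as a description.

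The strongest members were found at distinct places in their windows. The strongest one per kb was a region of 1340 bp in the Sox10 window, from 78961207 to 78962546 on chromosome 15, near the start of the window. It held 18.6 and 39.3 CPM in KO samples 1 and 2, and 22.3 and 24.95 CPM in WT samples 1 and 2. The KO libraries lay on either side of WT. Its level per kb, 19.6 CPM, was above that of 99.6% of all regions, and it made up 53.7% of the Sox10 window's mean level. It was followed by a pair of members, the last ending at 78966294, and then by 24535 bp without a region. Without KO sample 1 its log2 difference of KO over WT was 0.74, and without KO sample 2 it was -0.35. In the Mbp window the strongest region ran from 82691256 to 82692589 and held 12.7, 28.7, 19.3 and 26.2 CPM in the same order of libraries. Without KO sample 2 its log2 difference was -0.84, and without KO sample 1 it was 0.34. This region carried 10.9% of that window, whose signal was spread over many regions with a median gap of 2490 bp. The strongest Cnp region, from 100450402 to 100452090, held 13.9, 11.7, 10.04 and 11.5 CPM, or 24.5% of its window. In the Pdgfra window no region stood out, and the strongest, from 75579735 to 75580511, held 4.83, 6.31, 6.36 and 3.95 CPM. Behind it and 1 further region, 24114 bp of this window were without a region.

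The Olig1/Olig2 window held the broadest members. A region of 3003 bp, from 91227564 to 91230566 on chromosome 16, was wider than 99.8% of all regions, and its neighbour of 2232 bp, from 91232112 to 91234343, was wider than 99.2%. The former held 19.9 and 27.2 CPM in KO samples 1 and 2, and 15.1 and 15.4 CPM in WT samples 1 and 2. The latter held 21.9, 23.7, 21.3 and 16.1 CPM in the same order and was the strongest of its window, with 8.99% of the window's level. In both, each KO library lay above each WT library, which by total counts alone held for the former but not the latter. The median gap between members of this window was 1305 bp, the shortest of the 5 windows with more than 1 region, and the longest gap was 17573 bp.

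**Figure D2:**
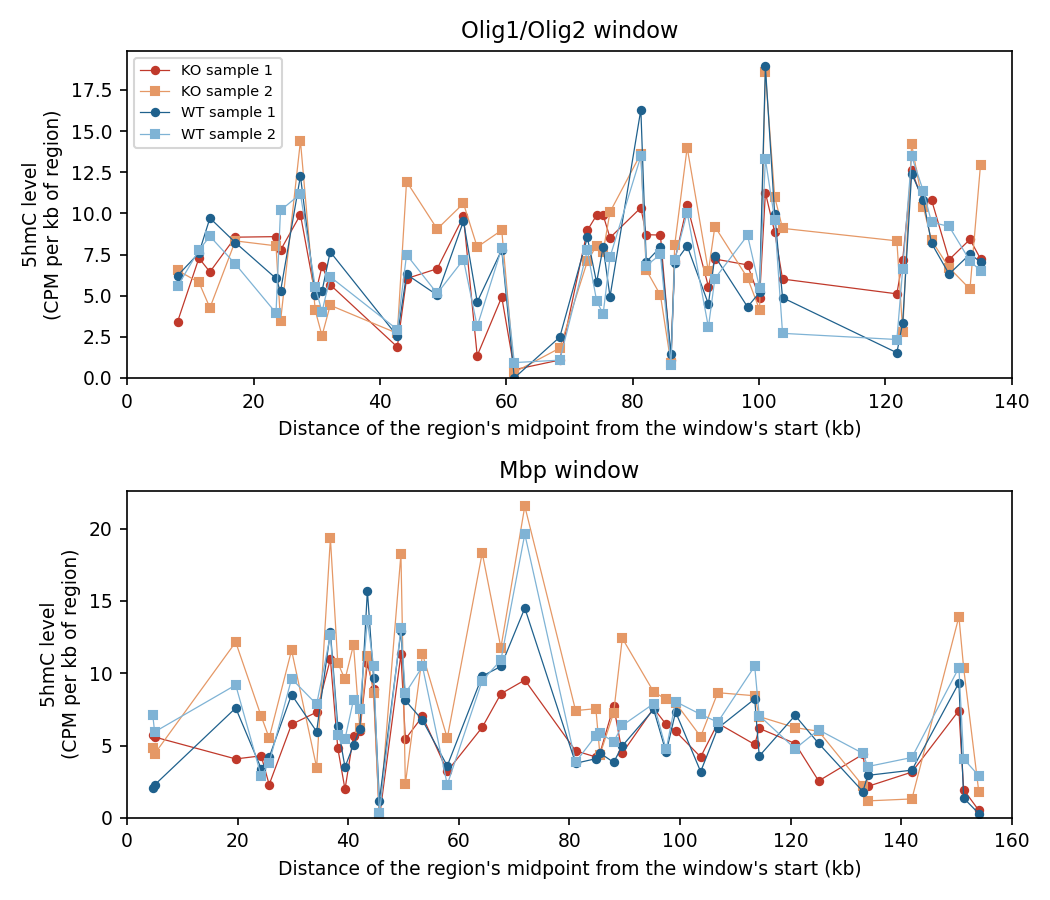
5hmC level of each region in CPM per kb of region, against the distance of its midpoint from the window's start in kb, for the Olig1/Olig2 window (43 regions) and the Mbp window (42 regions); thin lines join the values of 1 library as a guide. The 4 libraries share peaks and troughs only in part: over the 112 tested members of all windows, Spearman's rho between libraries ran from 0.451 to 0.733. KO sample 2 is the highest library in 22 of 40 tested Mbp members.

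Next, KO was compared with WT over the window sums. None of the 6 windows passed the adjusted threshold by edgeR. In the Olig1/Olig2 window the mean sum was 241 ± 8.79 CPM for KO against 220 ± 4.11 CPM for WT (± SD, n = 2 each), and both KO libraries lay above both WT libraries. Scaled by total counts alone the order was 288 and 201 CPM in KO against 248 and 193 in WT, so that the groups overlapped. The log2 difference of KO over WT was 0.16 ± 0.17 (SE) with a 95% interval from -0.25 to 0.56, and edgeR's quasi-likelihood test gave an adjusted p of 1.00. The Cnp sum was 48.8 ± 1.20 CPM in KO and 47.5 ± 2.18 in WT (SD, n = 2 each), with a log2 difference of 0.06 and an interval from -0.34 to 0.45. For Pdgfra it was 31.7 ± 2.40 CPM in KO and 31.7 ± 1.33 in WT (SD, n = 2 each), a log2 difference of 0.02 with an interval from -0.41 to 0.46. By total counts alone the Cnp sum was 58.7 and 40.4 CPM in KO and 51.2 and 43.8 in WT, and the Pdgfra sum 40.96 and 24.4 in KO and 36.3 and 27.4 in WT, so that both spread more widely than with TMM. For these 3 windows, the intervals reach folds of 0.84 to 1.47, 0.79 to 1.37 and 0.75 to 1.37.

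With TMM scaling, the Mbp and Sox10 windows were measured less tightly, and the KO libraries lay on either side of the WT libraries. The Mbp sum was 157 CPM in KO sample 1 and 247 in KO sample 2, against 183 and 211 in WT samples 1 and 2. Its log2 difference was 0.06, with an interval from -0.54 to 0.65. The Sox10 sum was 35.1 and 68.5 CPM in KO and 42.3 and 50.02 in WT, with a log2 difference of 0.19 and an interval from -0.55 to 0.93. Without KO sample 1, the difference was 0.37 for Mbp and 0.61 for Sox10, with adjusted p of 0.0378 and 0.00243 by edgeR, in a fit that called 18.1% of all windows and bins. Without KO sample 2 it was -0.33 and -0.40, with adjusted p of 0.282 and 0.300 where 0.446% of windows and bins were called, so either direction rested on 1 KO library. By total counts alone the Mbp sum was 192 and 201 CPM in KO and 204 and 188 in WT, and the Sox10 sum 42.97 and 55.7 in KO and 47.1 and 44.6 in WT. The KO libraries then lay between the WT libraries for Mbp, and still on either side of them for Sox10. The Mog window, with 10 to 40 counts per library, had a log2 difference of 0.09 and an interval from -1.72 to 1.89, or folds of 0.30 to 3.72, so that a change within these bounds was not detectable at this depth. All 6 adjusted p-values by edgeR were 1.00. Among all 20105 windows and bins tested, 0% passed the adjusted threshold of 0.05, and the unadjusted p was under 0.05 in 1.11%, to which none of the 6 windows belonged. The median log2 difference over the bins was 0.02, and 5% of them lay below -0.58 and 5% above 0.43. CPM are relative to the other regions of a library, so a loss of 5hmC shared by the whole genome would not appear in them. By dot blot, the study reports a significantly lower global level of this mark in KO astrocytes. Whether the windows shared in such a loss was not tested. The study also reports regions that differed in this mark between KO and WT, and those were not compared with the windows here.

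**Figure D3:**
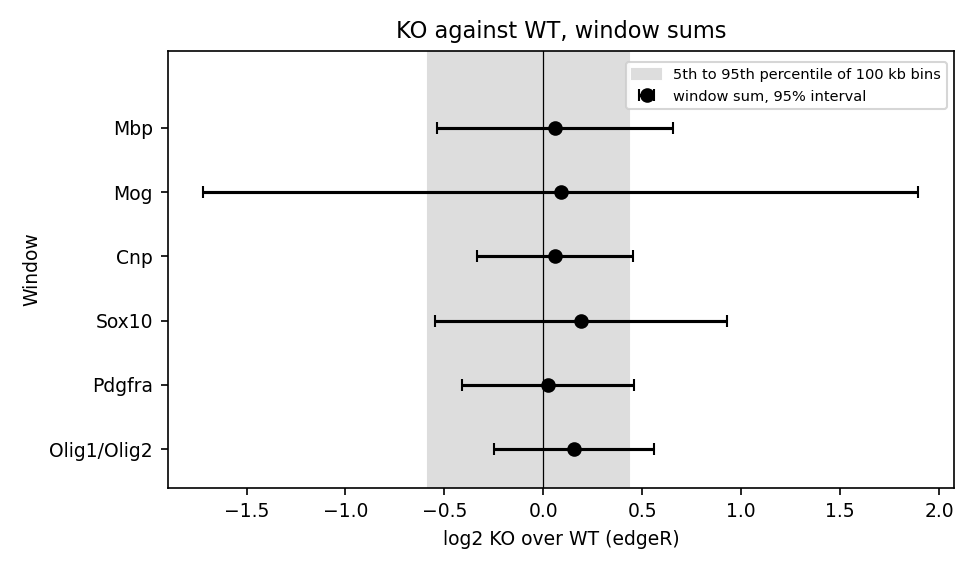
log2 difference of KO over WT for the 6 window sums, with 95% intervals from edgeR's quasi-likelihood fit; the grey band runs from the 5th to the 95th percentile of 100 kb bins (-0.58 to 0.43). All 6 intervals span 0, and the one for Mog is the widest.

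Single regions were then tested. Of the 119 members, 112 passed the low-count filter, and 0 of them passed at adjusted p under 0.05 by edgeR, as did 0% of all 176957 regions tested. At an unadjusted p under 0.05 there were 3 members higher in KO and 1 lower, that is, 2.68% and 0.893% of 112, against 1.54% and 1.27% of all regions tested. Both KO libraries lay above both WT libraries in 21 members (18.8%, against 15.3% of all regions tested) and below them in 16 (14.3%, against 15.6%). Scaled by total counts alone, these numbers were 19 and 9, against 14.7% and 11.1% of all regions tested. Without KO sample 1, 9 of 114 members (7.89%) passed at adjusted p under 0.05, against 7.52% of all 178928 regions then tested. Without KO sample 2, 1 of 114 (0.877%) passed, against 1.09% of all regions. The median log2 difference was 0.05 over the members and 0.02 over all regions tested. The Olig1/Olig2 window had 11 of 40 tested members with both KO libraries above both WT libraries and 5 with both below. The other windows had 4 and 6 of 40 in Mbp, 2 and 2 of 10 in Cnp, 1 and 2 of 9 in Sox10, and 3 and 1 of 12 in Pdgfra. The 3 members higher at unadjusted p under 0.05 were all in the Olig1/Olig2 window, which was not tested as a difference between windows.

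The first of them, from 91301557 to 91302079 on chromosome 16, had the lowest unadjusted p of all members. It held 2.67 CPM in KO sample 1 and 4.36 in KO sample 2, against 0.801 and 1.22 in the WT samples, from 57, 67, 15 and 21 counts. Its log2 difference was 1.79 ± 0.57 (SE), and edgeR gave an adjusted p of 1.00. The difference was 2.11 without KO sample 1 and 1.40 without KO sample 2, and 1.52 and 2.12 without WT samples 1 and 2. This region followed the longest gap of the window. The others were the region of 3003 bp described above, with a log2 difference of 0.62 ± 0.28 (SE), and a region from 91253900 to 91254691, which held 7.83 and 6.37 CPM in KO and 4.59 and 3.72 in WT. The latter had a log2 difference of 0.77 ± 0.36 (SE), with an unadjusted p of 0.0498 by edgeR, just under 0.05. In the other direction, the member of lowest unadjusted p in this window, from 91192862 to 91193334, held 3.05 and 2.02 CPM in KO and 4.59 and 4.07 in WT.

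The 1 member lower in KO at unadjusted p under 0.05 lay in the Cnp window, from 100437402 to 100438183 on chromosome 11. It held 2.11 and 1.63 CPM in KO samples 1 and 2, and 4.54 and 4.65 CPM in WT samples 1 and 2. The WT libraries were close together and the KO libraries were both below them. Its log2 difference was -1.29 ± 0.45 (SE), and edgeR gave an adjusted p of 1.00. The difference was -1.49 without KO sample 1 and -1.12 without KO sample 2, and -1.30 and -1.27 without WT samples 1 and 2. Another region of the same window, from 100444139 to 100444759, was the Cnp member with the lowest p in the higher direction, at 1.41 and 5.01 CPM in KO and 1.92 and 2.04 in WT, and here the KO libraries lay on both sides of WT. Without KO sample 1 its log2 difference was 1.34, and without KO sample 2 it was -0.49. No Cnp member passed the adjusted threshold with all libraries.

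Among the Mbp members, log2 differences ran from -1.08 to 1.16. The lowest p in the higher direction belonged to the region from 82700658 to 82701578, at 4.27 and 6.83 CPM in KO and 3.47 and 3.55 in WT. In the lower direction it belonged to the region from 82753376 to 82754540, at 2.53 and 1.37 CPM in KO and 3.42 and 4.13 in WT. In the Sox10 window, the region from 78990830 to 78991248 held 3.001 and 4.88 CPM in KO and 2.14 and 2.79 in WT, and the region from 78966031 to 78966294 held 1.17 and 1.04 in KO and 1.44 and 3.43 in WT. In the Pdgfra window, the region from 75575320 to 75576243 held 4.27 and 6.37 CPM in KO and 4.22 and 2.97 in WT. The Pdgfra region from 75609174 to 75609543 held 2.30 and 1.37 in KO and 2.03 and 3.84 in WT, so that the groups overlapped. None of these passed the adjusted threshold by edgeR.

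**Figure D4:**
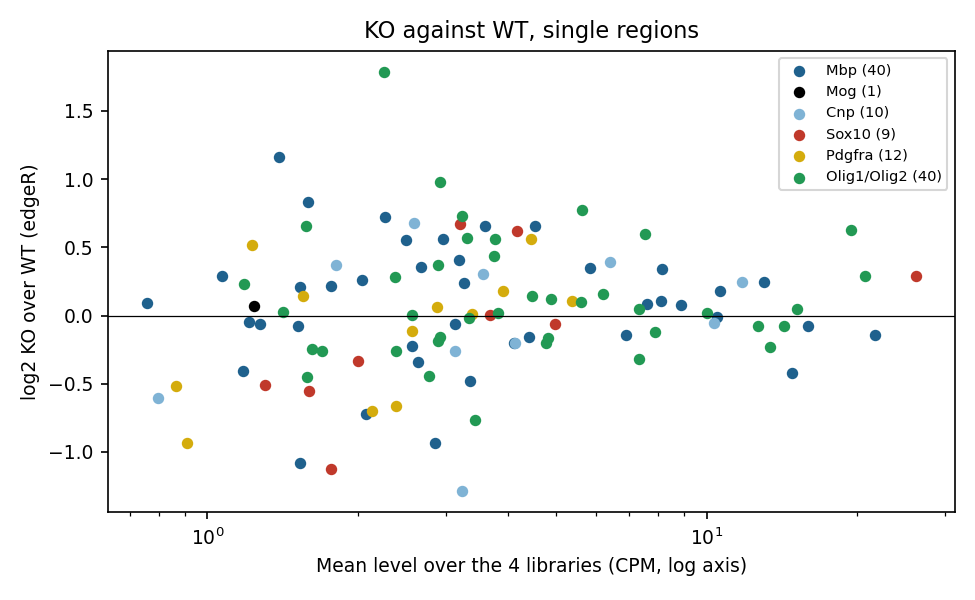
log2 difference of KO over WT by edgeR for the 112 members that passed the low-count filter, against their mean CPM over the 4 libraries on a log axis, 1 point per region and coloured by window. Points scatter on both sides of 0, with 63 above and 49 below, and the highest is the Olig1/Olig2 region at 1.79.

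Finally, the libraries were compared with each other within the members. KO sample 2 was the highest or lowest of the 4 libraries in 81 of 112 members, or 72.3%, against 68.8% over all regions tested. KO sample 1 took that place in 50.9% of the members, and WT samples 1 and 2 in 34.8% and 42.0%. Over all regions tested these shares were 51.7%, 38.9% and 40.7%, so the members were close to the whole table. The direction differed among windows. KO sample 2 lay above KO sample 1 in 30 of 40 Mbp members and 7 of 9 Sox10 members, but in 2 of 12 Pdgfra members and 20 of 40 Olig1/Olig2 members, against 50.2% of all regions tested. Scaled by total counts alone, KO sample 2 lay above KO sample 1 in 20 of 40 Mbp members, 6 of 9 in Sox10, 0 of 12 in Pdgfra and 8 of 40 in Olig1/Olig2, against 25.1% of all regions tested. With TMM scaling, WT sample 2 also lay above WT sample 1 in 32 of 40 Mbp members, against 50.2% of all regions tested. By total counts alone this held in 17 of 40 Mbp members. Members of a window are neighbours in the same libraries and are not independent. The log2 ratio of KO sample 1 to KO sample 2 was -0.66 for the Mbp sum, -0.97 for Sox10, -0.05 for Cnp, 0.15 for Pdgfra and -0.07 for Olig1/Olig2, where the median absolute ratio over tested bins was 0.42. The Cnp and Olig1/Olig2 sums thus differed less between the KO libraries than 93.5% and 90.2% of bins did. These bins were not matched to the windows by counts or by number of regions, and the median autosomal bin held 14.5 CPM. By total counts alone, where the median ratio of tested bins was 0.64, the Cnp and Olig1/Olig2 ratios were 0.54 and 0.52. A larger absolute ratio was then found in 58.4% and 60.2% of bins. With the same scaling the ratio was -0.07 for Mbp, -0.38 for Sox10 and 0.75 for Pdgfra. Of the bins, 94.9%, 70.9% and 44.8% had a larger absolute ratio than these. The order of the windows by this spread thus depended on the scaling. Across the 112 members, Spearman's rho of the count per base was 0.733 between the WT libraries, 0.731 for KO sample 1 with WT sample 1, 0.472 between the KO libraries and 0.451 for KO sample 2 with WT sample 2, as a description of regions that share these libraries. Over all regions tested these values were 0.613, 0.528, 0.248 and 0.463.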

How the data were processed

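5hmC-tagged DNA of 2 KO and 2 WT libraries was sequenced, and the authors deposited a table of unnormalised read counts for a list of regions shared by these libraries. Its columns name the genotype and number only, and were taken as the 5hmC libraries because the table is named for 5hmC. Per the labels, reads were aligned with Bowtie2 2.2.6 to mm9. How regions were called, and how duplicate and multiply mapped reads were treated, is not given in the sources used here. The 2 input libraries were not analysed here. Total counts were 16819455 to 19288900 per library, and 3 counts equalled 0.141 to 0.195 CPM.

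The windows, members and lists were chosen with earlier results of these data known. Regions were filtered with filterByExpr (minimum count 10, minimum total 15), scaled by TMM and tested with edgeR 4.0.16 (quasi-likelihood test, R 4.3.3) over all 176957 regions passing, with Benjamini-Hochberg adjustment (threshold 0.05). Counts summed over the windows were fitted together with sums over 100 kb bins of the genome, from which the members were left out. CPM use the TMM-scaled library sizes of the region fit. Both fits were run on simulated data, with no change and with changes larger than those of the members or windows here. Smaller changes were not simulated, and the simulated counts varied independently between regions, so this does not test differences of the size found. Intervals at 95% use the moderated degrees of freedom. With 2 libraries against 2, no exact permutation test can go below a two-sided p of 0.333 and was not used. Ranks among bins used autosomal bins from 3 Mb onward that met no window, and ratios of single regions between libraries added 0.5 CPM. The named regions of a window were that of highest mean CPM and that of lowest unadjusted p in each direction; the other 2 at unadjusted p under 0.05 and the broadest region were named after their values were seen. Alternatives were DESeq2 1.42.0, other scaling, filters and bins, autosomes only, a replicate block, and leaving out libraries or top regions. Figures were drawn with matplotlib 3.10.9.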

Additional observations from a re-analysis of the deposited data

How the results depend on the processing

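The count of 0 member regions at adjusted p under 0.05 by edgeR stood beside 4 at unadjusted p under 0.05. It stayed at 0 with DESeq2, total-count scaling, no low-count filter, a mean count of at least 20, the replicate block and on autosomes only. It was also 0 without the 25 regions of highest mean count, of which 0 were members. Membership by any overlap repeated the main fit, and at adjusted p under 0.01 the count could only stay at 0, so these settings could not change it. Leaving out 1 library gave 0 to 9, with 9 without KO sample 1 and 1 without KO sample 2. A genotype was then left with 1 library, which the fit assumes to vary like the others. Of 65 log2 differences of window sums under the other alternatives, 62 kept their sign and their side of the threshold, and so did 127 of 128 of named regions. Both totals include the values by any overlap, which are those of the main fit. The filters, bin sizes, autosomes only and leaving out the 25 regions of highest mean count did not alter the windows' own counts. They could change only the scaling and the shared spread, and gave 0.054 to 0.063 for Mbp. These totals are therefore no measure of how firm the differences were. Entering the sample number as replicate block, that of Mog became -0.024, and that of its region -0.053, and no call of a window or named region changed. Same-numbered libraries share only a number in the labels. Their deviations from the group means had a correlation of 0.41 over bins and windows and 0.17 over regions. Over all regions, the block raised the calls from 0 to 79. Without the strongest region of each window but Mog, which has 1 region, an alternative chosen after seeing the data, Cnp became -0.011 and Pdgfra -0.0010. Leaving out 1 library gave -0.33 to 0.37 for Mbp, -0.86 to 0.62 for Mog, -0.0037 to 0.12 for Cnp, -0.40 to 0.61 for Sox10, -0.040 to 0.077 for Pdgfra and 0.10 to 0.21 for Olig1/Olig2. Among named regions it reversed the strongest ones of Mbp (-0.84 to 0.34), Sox10 (-0.35 to 0.74) and Pdgfra (-0.19 to 0.50), the Mog region (-0.89 to 0.62) and the Cnp region from 100444139 to 100444759 (-0.49 to 1.34). The causes were not tested. The Mog window rests on 10 to 40 counts per library. Members at unadjusted p under 0.05 numbered 0 to 19 higher in KO and 0 to 8 lower over the leave-one-out fits. The highest counts, without KO sample 1, were 16.7% and 7.02% of 114, against 11.9% and 11.5% of all regions. There was 1 higher with total-count scaling. With total-count scaling the 6 window differences kept their sign and none passed, but those of Mbp (0.0046), Mog (0.18), Sox10 (0.11) and Pdgfra (0.036) moved by over 1.5 times. Levels by total counts alone were added after seeing the data.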
